A study of Mus musculus with 6 samples.

Results

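Genes for the docking, priming and calcium-triggered fusion of secretory vesicles were followed in AtT-20 cells depleted of Dnmt1. The set holds 50 genes, chosen by name for their part in regulated exocytosis and with an earlier look at the same arrays known, so the comparison of the groups is described here and not tested on them. They had 127 of the 45037 probe sets of the array that are not controls, counting a probe set only where the platform annotation names that gene alone. A filter on dim signal kept 48 of the 50 genes and 109 of their 127 probe sets, against 13477 of 18193 genes and 27022 probe sets in all. Cadps2 and Slc18a2 were the genes it left out.

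AtT-20 is an established mouse pituitary tumour line of corticotroph type that makes pro-opiomelanocortin and secretes ACTH. All cultures received siRNA at 20 nM repeatedly over 8 days. In 3 cultures the siRNA was directed at Dnmt1 (siDNMT1), the enzyme that maintains DNA methylation after replication, and in 3 it was non-targeting (siNT). The labels describe 3 independent repeats, each with 1 array of either group, and name no genotype or other agent. The results hold for this line, and in a bulk culture fewer cells of a kind and less RNA per cell cannot be told apart.

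In regulated exocytosis a granule is tethered by Rab GTPases and their effectors, primed by CAPS and Unc13 proteins, and held by complexins until calcium binds a synaptotagmin. Fusion itself is driven by a bundle of SNARE proteins, a VAMP on the vesicle with a syntaxin and a SNAP-25 relative on the plasma membrane. NSF and its SNAP adaptors then pull the bundle apart so that the SNAREs can be used again. Corticotrophs use this machinery to release ACTH from dense-core granules.

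The deposited signals were scaled to a common median per array, and levels below are these scaled signals. Differences are log2(scaled signal + 5.29) of siDNMT1 minus siNT, with the standard error (SE) of the fit without the repeat number. A gene with more than 1 probe set is represented by the one with the highest deposited signal. Dnmt1 itself had a scaled signal of 219 ± 79.6 in siDNMT1 and 620 ± 80.4 in siNT (SD, n = 3) with no overlap, in the direction the labels give. Before scaling, array medians ran from 19.8 to 36.3, with both arrays of repeat 2 the brightest. The 3'/5' ratios of actin were 1.19 to 1.37 in siDNMT1 and 1.23 to 1.40 in siNT. Pomc was at 9229 ± 1974 and the corticotroph factor gene Tbx19 at 1504 ± 125 in siNT (SD, n = 3). Of 9 corticotroph markers on the array 8 passed the filter. Of the markers of other cells on the array, 4 of 7 passed for other pituitary hormone cells, 5 of 8 for fibroblasts, 3 of 5 for immune cells, 2 of 4 for endothelium and 3 of 5 for glia. Of those lists' defining markers Fshb, Pdgfrb and Olig2 were under the pseudocount on every array, and Ptprc and Pecam1 did not pass. Others were measured, with mean scaled signals in siNT (n = 3) of 48.1 for Lhb, 66.5 for Col1a2, 66.3 for Cd3e, 35.5 for Kdr and 359 for Mbp. All 6 neuronal markers passed, with 3 lower and 3 higher in siDNMT1, and their summed signal was 1948 to 2162 in siDNMT1 and 2045 to 2592 in siNT. In none of the 7 marker lists were the summed signals of the groups apart, and the part of other cell types in the results below was not tested.

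Napb and Sv2a had the largest differences after Dnmt1 depletion, both downward, and those of the other exocytosis genes were smaller. Of the 48 genes 32 were lower (66.7%) and 16 higher, a share near the 60.9% lower among all 13477 tested genes. The median log2 difference was -0.18 for the 48 genes and -0.06 for all tested genes. Taken by repeat, the median of the set was -0.10, -0.29 and -0.26 in repeats 1, 2 and 3, and that of all tested genes 0.02, -0.13 and -0.07. In 21 of the 48 genes (43.8%) the siDNMT1 array was the lower in 3 of 3 repeats, and in 6 it was the higher. The same shares over all tested genes were 20.5% and 9.85%. For 8 of the 48 genes (16.7%) every siDNMT1 value lay below every siNT value, and for 0 every value lay above, against 6.31% and 2.74% of all tested genes. Of the 109 probe sets 13 lay wholly below their controls (11.9%), against 5.78% of all tested probe sets. The 8 genes were Napb, Sv2a, Syt7, Rab3a, Ptprn, Syt13, Vamp2 and Rab3c.

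No probe set of the set passed an adjusted p of 0.05 in limma without the repeat number (0% of all tested probe sets passed). None passed with it as a block either (0.0851% passed). Dnmt1 itself did not pass in limma without the block (adjusted p 0.15 on each of its probe sets). With the block it passed (adjusted p 0.014 to 0.021). The fit without the block thus missed the silenced gene, and the lack of a call does not show the lack of a change. At an unadjusted p under 0.05 without the block, 11 of the 109 probe sets were lower and 2 higher, where 2.47% and 1.32% of all tested probe sets were. With the block the numbers were 19 and 2, where 5.39% and 2.45% were. Since the genes were chosen with this contrast in view, nothing is read from these numbers. Without siDNMT1 repeat 1 the Napb probe set passed in the fit without the block (0.0074% of all probe sets passed). With the block, Napb passed without repeat 1 (0.152%), and Napb, Rab3a, Sv2a and Syt7 passed without repeat 3 (0.984%).

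**Figure D1:**
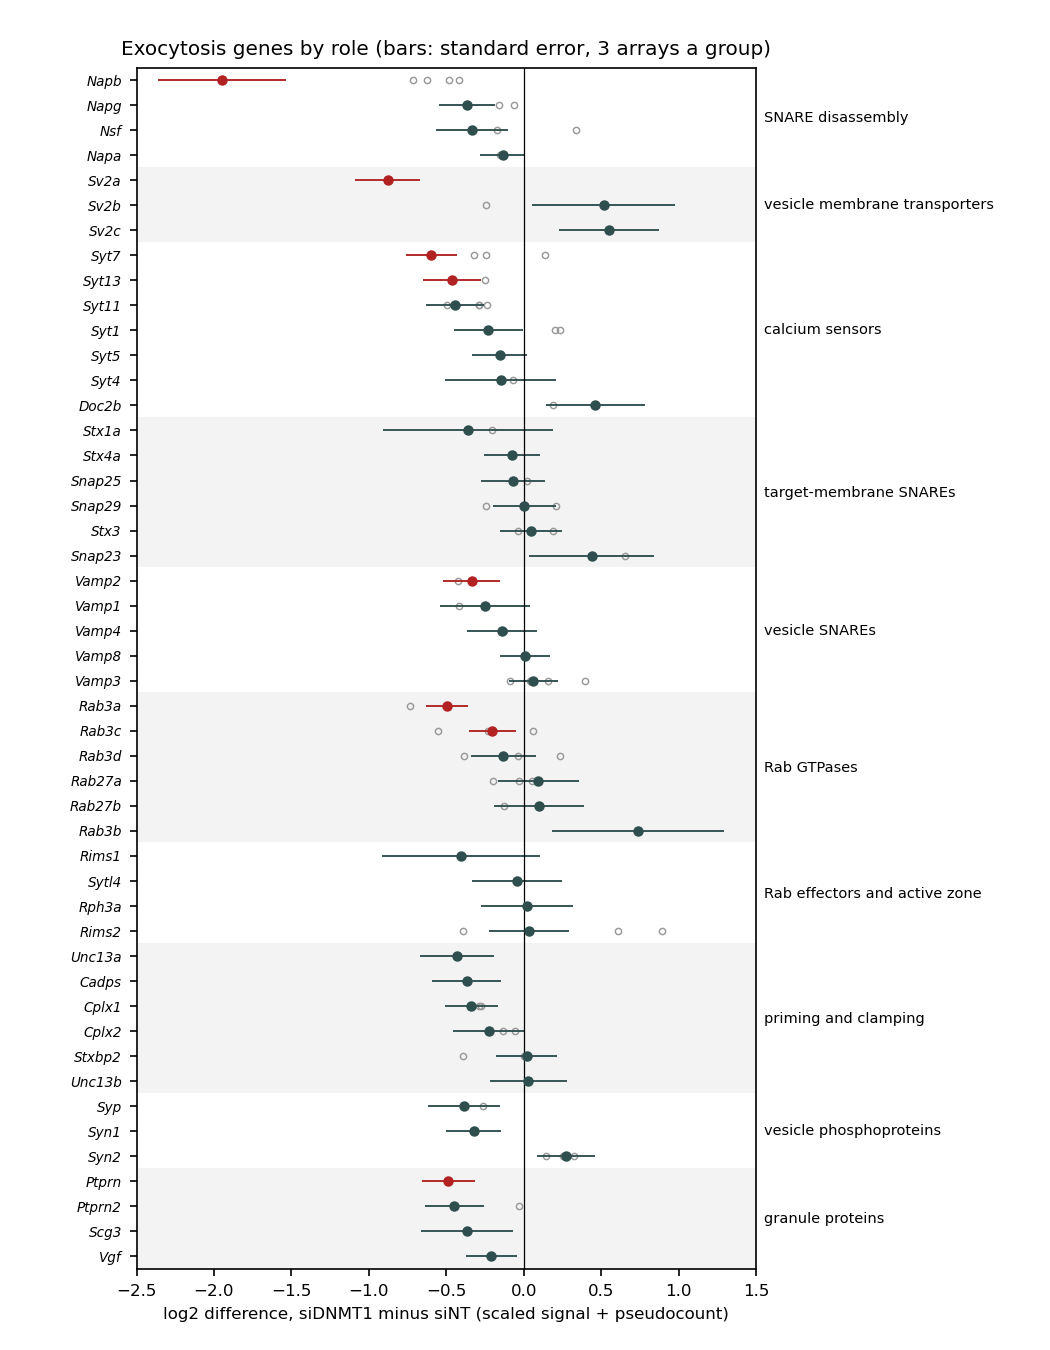
Log2 difference of siDNMT1 minus siNT for the 48 exocytosis genes that passed the filter, grouped by role. Filled points are the brightest probe set with its SE (3 arrays a group), red where the groups did not overlap, and open circles are the gene's other tested probe sets. Napb at -1.95 lies far to the left of the others, and Rab3b at 0.74 is the highest.

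The largest difference was that of Napb, one of the SNAP adaptors that load NSF onto spent SNARE bundles. On its brightest probe set, 1450888_at, the scaled signals were 56.5, 10.2 and 18.3 in siDNMT1 repeats 1, 2 and 3 and 95.5, 109 and 108 in siNT. The controls lay close together, while siDNMT1 repeat 1 kept far more signal than repeats 2 and 3. The log2 difference was -1.95 (SE 0.41), and by repeat -0.71, -2.88 and -2.26. The other 4 tested Napb probe sets were also lower, by smaller amounts, from -0.42 to -0.71. On the next brightest, 1423173_at, the groups did not overlap either, with 39.0, 31.3 and 28.8 in siDNMT1 and 51.4, 65.0 and 55.9 in siNT. How large the Napb change was thus differed between probe sets, and the direction did not.

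The other genes of SNARE disassembly had small differences of the same sign. Napa, the widely expressed SNAP adaptor, was at 949.7, 784 and 995 in siDNMT1 and 994, 985 and 1006 in siNT. Those groups overlapped, and the difference was -0.14 (SE 0.15). Napg, the gamma form, differed by -0.36 (SE 0.18) and Nsf, the ATPase itself, by -0.33 (SE 0.23). All 4 genes of this role were lower in 3 of 3 repeats on their brightest probe sets, but 1 dim Nsf probe set was at 0.34.

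Sv2a had the next largest difference among the 48 genes. It encodes a membrane glycoprotein of synaptic and dense-core vesicles that is linked to calcium-triggered release. Its single probe set, 1423406_at, read 131, 138 and 163 in siDNMT1 and 233, 356 and 231 in siNT. All siDNMT1 arrays lay well below all controls, and control 2 stood above the other controls. The mean in siDNMT1 was 52.7% of that in siNT, and the log2 difference -0.88 (SE 0.21), or -0.80, -1.34 and -0.49 by repeat.

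The paralogs of Sv2a were dim and did not have lower values throughout. Sv2c was at 32.1, 46.1 and 24.0 in siDNMT1 and 25.2, 18.8 and 19.1 in siNT, higher in each repeat but with overlapping groups (difference 0.55, SE 0.33). Sv2b had 0.52 (SE 0.46) on 1 probe set and -0.24 on the other. Slc18a2, the vesicular monoamine transporter gene, had 0.557 to 10.2 over the 6 arrays and was not tested.

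Among the synaptotagmins, the calcium sensors of fusion, Syt7, Syt13 and Syt11 were lower. Syt7, encoding a high-affinity sensor of granule fusion, was at 1037, 938 and 1233 in siDNMT1 and 1374, 1873 and 1621 in siNT. The groups did not overlap, and the difference was -0.60 (SE 0.16). Its other probe sets were at -0.32, -0.24 and 0.14, so that the dimmest did not share the direction. Syt13, of a synaptotagmin that lacks the calcium-binding residues, was at 528, 629.8 and 482 in siDNMT1 against 669, 949.9 and 665 in siNT, a difference of -0.46 (SE 0.18). Again every siDNMT1 value lay below every siNT value, with control 2 the highest, and without control 2 the difference was -0.29. On the other Syt13 probe set, 1451045_at, the groups overlapped. Its difference was -0.25 (SE 0.22), with a higher value in siDNMT1 in repeat 1 (0.20).

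Syt11, another member without calcium binding, was lower on all 5 probe sets, from -0.24 to -0.49, in overlapping groups. On the brightest, siDNMT1 had 359, 385 and 485 and siNT 445, 616 and 623. Syt1, the fast sensor of neurons, was at -0.23 (SE 0.22), with its dimmer probe sets at 0.20 and 0.23. Syt4 was at -0.15 (SE 0.36) and Syt5, found on dense-core granules, at -0.16 (SE 0.18). Doc2b, a soluble C2-domain protein that acts in slow release, had the opposite sign, with 30.8, 68.1 and 66.7 in siDNMT1 and 26.7, 40.9 and 43.9 in siNT. It was higher in each repeat, but siDNMT1 repeat 1 lay within the controls (0.46, SE 0.32).

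**Figure D2:**
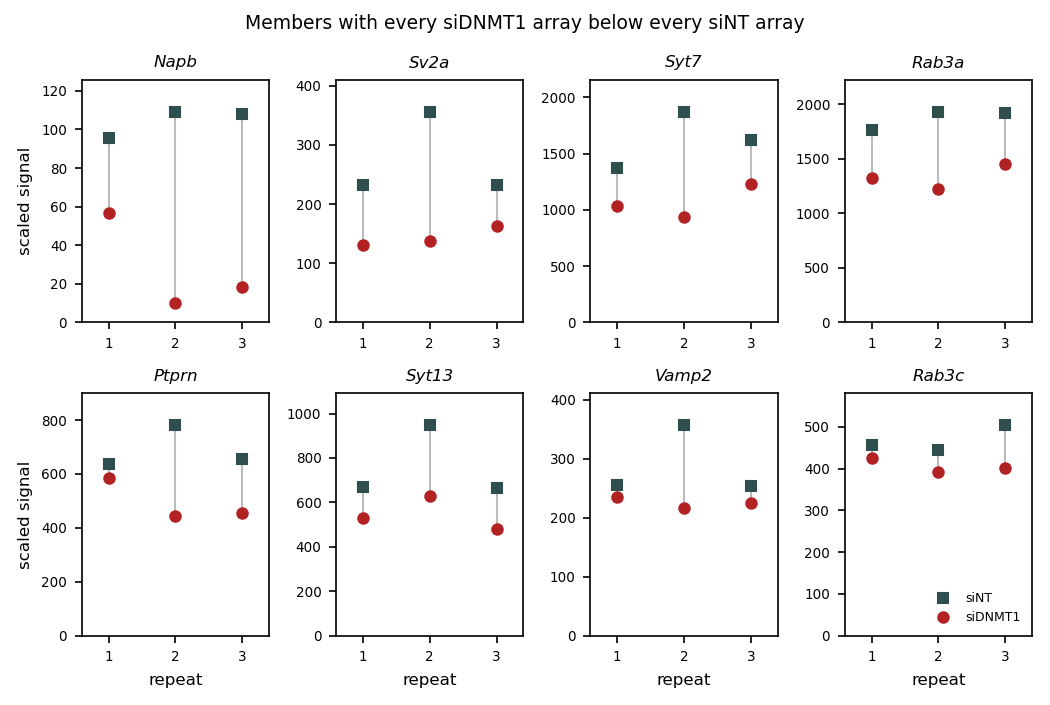
Scaled signal of the 8 genes whose siDNMT1 values (red circles) all lay below their siNT values (dark squares), by repeat, with a grey line joining the arrays of 1 repeat; every vertical axis starts at 0. The gap is widest for Napb in repeats 2 and 3 and narrow for Rab3c. Control 2 is the highest control for Sv2a, Syt7, Syt13, Ptprn and Vamp2, and by little also for Napb and Rab3a.

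The target-membrane SNARE genes showed little difference. Snap25, which forms the fusion bundle of neuroendocrine cells, was at 526, 881 and 557 in siDNMT1 and 577, 693 and 742 in siNT. Its groups overlapped widely, and the difference was -0.07 (SE 0.21). Snap29 was at 0.00 (SE 0.20), Stx4a, a syntaxin of constitutive and regulated fusion, at -0.08 (SE 0.18) and Stx3 at 0.05 (SE 0.20). Stx1a, the partner of Snap25, was dim, and its brightest probe set was erratic. That probe set read 15.0, 12.0 and 62.5 in siDNMT1 and 31.4, 61.7 and 15.2 in siNT (-0.36, SE 0.55). The other, 1448366_at, read 26.2, 26.3 and 18.8 in siDNMT1 and 29.7, 26.5 and 27.7 in siNT (-0.20, SE 0.30). Its groups did not overlap, but the gap was almost nothing, and 5.78% of all tested probe sets lay wholly below their controls.

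Snap23, the broadly expressed relative of Snap25, tended the other way on dim probe sets. The brightest read 24.9, 51.3 and 17.7 in siDNMT1 and 13.8, 21.1 and 26.1 in siNT, with overlap and a difference of 0.44 (SE 0.40) that was 0.07 without siDNMT1 repeat 2. On the second tested probe set, 1420896_at, the 33.7, 36.8 and 32.2 of siDNMT1 all lay above the 21.4, 18.3 and 20.0 of siNT (0.65, SE 0.29). It was among the 2 tested probe sets of the whole set with every siDNMT1 value above the controls. The other belonged to Rims2, and 2.96% of all tested probe sets did the same.

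Of the vesicle SNAREs, Vamp2, the main VAMP of regulated granules, was lower on both probe sets with no overlap. The brighter read 235, 216 and 225 in siDNMT1 and 255, 358 and 254 in siNT, a difference of -0.33 (SE 0.18). By repeat the differences were -0.12, -0.71 and -0.17, and without control 2 the difference over the remaining arrays was -0.17. Vamp8, of endosomal and granule fusion in many secretory cells, was at 882, 668 and 918 in siDNMT1 and 794, 797 and 840.1 in siNT. It did not differ beyond the spread of the arrays (0.01, SE 0.16). Vamp3, the VAMP of recycling endosomes, was at 0.06 (SE 0.16), Vamp4, of the trans-Golgi network, at -0.14 (SE 0.23) and Vamp1 at -0.25 (SE 0.29).

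The Rab3 genes divided. Rab3a, the GTPase that sits on mature granules, had the smallest SE of the 48 genes. Its brightest probe set read 1322, 1221 and 1448 in siDNMT1 and 1767, 1932 and 1917 in siNT, a difference of -0.49 (SE 0.13). The other Rab3a probe set, 1422589_at, was apart as well, with 351, 314 and 394 against 584, 693 and 499 (-0.73, SE 0.18). Rab3c was lower with a small gap, at 425, 392 and 401 against 457, 444 and 505 (-0.20, SE 0.15). Its 4 tested probe sets ran from -0.55 to 0.06, and the groups overlapped on all but this brightest one.

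Rab3b, a form known from pituitary cells, was dim and had the highest difference of the set, 0.74 (SE 0.55). It was at 15.6, 105 and 40.1 in siDNMT1 and 11.1, 41.2 and 24.3 in siNT, higher in each repeat, although the repeats lay far apart. Single arrays moved this value: it was 0.12 without siDNMT1 repeat 2, 0.35 without siNT repeat 1 and 1.33 without siDNMT1 repeat 1. Rab3d differed by -0.13 (SE 0.21), and its 4 probe sets ran from -0.38 to 0.23. Rab27a and Rab27b, which recruit granules to the cortex, were at 0.09 (SE 0.26) and 0.10 (SE 0.29).

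The effectors that bind Rab3 or Rab27 showed no common direction. Sytl4, granuphilin, was at 109, 109 and 66.4 in siDNMT1 and 61.0, 125 and 113 in siNT (-0.05, SE 0.29). Rims1, an active zone scaffold gene, read 25.4, 14.1 and 4.98 against 30.5, 14.1 and 15.1 (-0.40, SE 0.51), at signals close to the filter. Rph3a, rabphilin, was at 0.02 (SE 0.30). Rims2 had 0.03 (SE 0.26) on its brightest probe set and -0.39, 0.61 and 0.89 on the others. Of the 4 genes, 0 had the same sign in 3 of 3 repeats.

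Among the priming and clamping genes, Unc13a, Cadps, Cplx1 and Cplx2 were lower in each repeat on their brightest probe sets. Cplx1, encoding the complexin that binds the assembled SNARE bundle, read 814, 855 and 613 in siDNMT1 and 1029.8, 1020.1 and 825 in siNT. The difference was -0.34 (SE 0.17), with overlap through siNT repeat 3, and the other 2 probe sets were at -0.27 and -0.29. Unc13a, a priming factor gene, was at 68.6, 67.4 and 112 against 96.2, 106 and 131 (-0.43, SE 0.24). Cadps, the CAPS factor gene of dense-core granules, differed by -0.37 (SE 0.22) and Cplx2 by -0.23 (SE 0.23). The dimmer Cplx2 probe sets were at -0.06 and -0.13. Unc13b and Stxbp2, the Munc18 relative of epithelial and blood cells, were at 0.03 (SE 0.25) and 0.02 (SE 0.20).

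Cadps2, the second CAPS gene, was too dim to be tested, but its arrays were apart. Its probe set read 18.7, 14.8 and 22.5 in siDNMT1 and 8.44, 2.48 and 6.07 in siNT, so that every siDNMT1 value lay above the controls. On control 2 the signal was under the pseudocount of 5.29, and no fold is given. This gene was singled out after its values were seen. The share of other untested probe sets whose arrays were apart is not given, so nothing is read from the separation.

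The vesicle phosphoproteins split between paralogs. Syp, synaptophysin, was at 303, 353 and 289.9 in siDNMT1 and 353, 609 and 325 in siNT (-0.39, SE 0.23), and control 2 was the highest array. Without control 2 the difference was -0.11. Syn1, which ties vesicles to actin, differed by -0.32 (SE 0.18). Syn2, its paralog, had higher values in each repeat on the brightest probe set, with 626, 674 and 570.4 in siDNMT1 and 409, 658 and 503 in siNT (0.27, SE 0.19). All 4 tested Syn2 probe sets were higher, from 0.14 to 0.32, in overlapping groups on the brightest.

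All 4 granule proteins were lower. Ptprn, the phosphatase-like granule membrane protein IA-2, read 585, 444 and 455 in siDNMT1 and 638, 783 and 656 in siNT (-0.49, SE 0.17), with no overlap but little gap in repeat 1. Its paralog Ptprn2 differed by -0.45 (SE 0.19) and was lower in each repeat, with its dimmer probe set at -0.03. Scg3, a granin that sorts cargo to the granule membrane, differed by -0.37 (SE 0.30). Vgf, a granin-like cargo precursor, was at 886, 833 and 903 against 813, 1151 and 1105 (-0.21, SE 0.16), higher than its control in repeat 1 and lower in repeats 2 and 3.

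Where a gene had several tested probe sets, they could be set against each other. Of 32 such genes, 15 were lower and 3 higher on all of them, and 14 had probe sets of both signs. The same shares over all genes with several tested probe sets are not given. Since 59.2% of all tested probe sets were lower, nothing is read from the counts. The 3 that were higher throughout were Doc2b, Snap23 and Syn2. The widest spreads were those of Napb, -1.95 to -0.42, and Rims2, -0.39 to 0.89.

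Several genes varied widely between repeats. Rab27a read 176, 208 and 303 in siDNMT1 and 153, 200.2 and 295 in siNT, so that the groups ran together and the repeats apart. Scg3 was at 298, 457 and 674 in siDNMT1 and 397, 747 and 669 in siNT. Cplx2 was at 554, 553 and 883 and at 581, 781 and 957. The repeat means of Rab3a, Ptprn and Sv2a, each over both arrays of a repeat, spanned 0.12, 0.16 and 0.33 on the log2 scale. Those of Syt13 and Napb spanned 0.45 and 0.90. In 37 of the 48 genes this span exceeded the absolute difference between the groups. The median span was 0.40, and the median absolute difference 0.30.

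**Figure D3:**
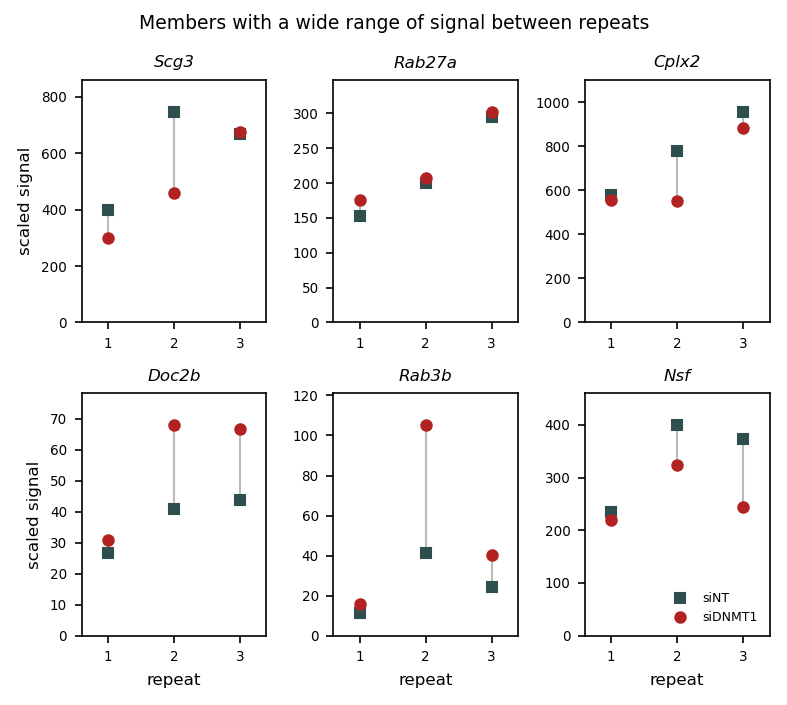
Scaled signal by repeat for 6 genes with a wide range between repeats, picked after their values were seen; red circles are siDNMT1, dark squares siNT, and a grey line joins the arrays of 1 repeat. Rab27a goes from 153 to 295 over the siNT arrays with siDNMT1 close beside, and Rab3b is highest in repeat 2 in both groups.

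The differences were also set against signal level. Of the 25 genes with a mean scaled signal of 200 or more, 21 were lower (84%), with a median of -0.33. Over all 4149 tested genes of that brightness the median was -0.08, and 70.5% were lower. In 16 of the 25 (64%) the siDNMT1 array was lower in 3 of 3 repeats, and in 7 (28%) the groups did not overlap, against 28.6% and 8.19% of all genes of that brightness. Of the 23 dimmer genes 11 were lower and 12 higher, with a median of 0.00, and Napb was the only one whose groups did not overlap (4.35%). Over all 9328 dimmer genes 56.7% were lower, with a median of -0.05, and 5.48% lay wholly below their controls. The split at 200 was set after the data were seen, and no test was made of it. These shares and medians by brightness are given under the median scaling alone. That scaling left the arrays' 2% trimmed means up to 1.19 times apart, and its part in the values of bright genes was not tested.

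**Figure D4:**
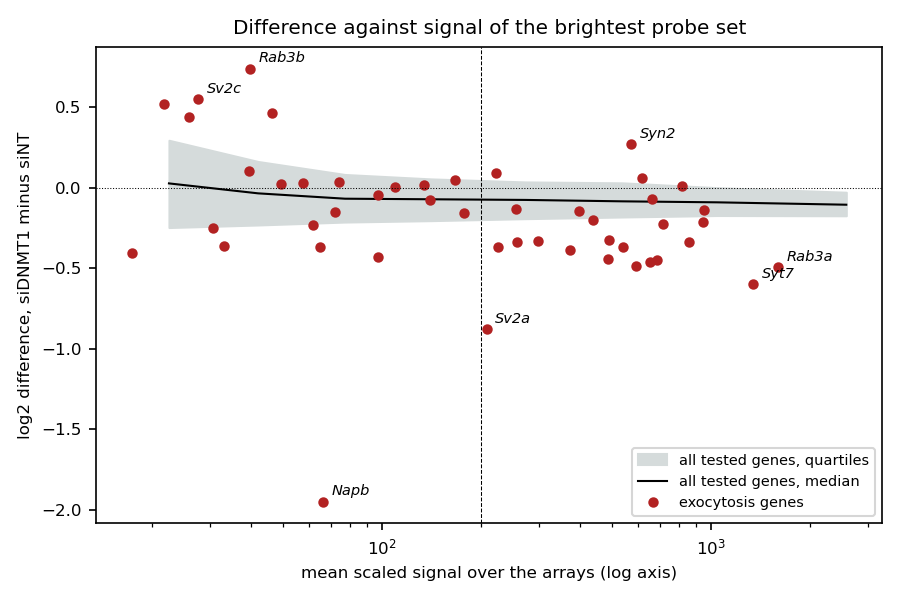
Log2 difference against mean scaled signal (log axis) for the 48 exocytosis genes (red), with the median (line) and quartiles (grey band) of all tested genes; the dashed line marks 200. To the right of it 21 of 25 genes are below 0, while to the left the points lie on both sides with Napb far below.

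Other genes of the pathway were taken from a list of 120 names, of which 110 were on the array and 92 passed the filter. Of these 62 were lower (67.4%) and 30 higher, with a median of -0.11, against 60.9% lower and a median of -0.06 over all tested genes. The groups did not overlap for 8 lower and 2 higher genes (8.7% and 2.17%), against 6.31% and 2.74% of all tested genes, so that these shares were near the background. None of their representative probe sets passed limma's adjusted threshold with or without the block. At an unadjusted p under 0.05 in limma without the block, 6 of the 92 were lower and 0 higher, where 2.56% and 1.31% of all tested genes were. With the block 13 of the 92 were lower and 3 higher, where 6.2% and 2.62% were. The shares of lower genes were thus above the background. Nothing is read from them, since the list was chosen with earlier results of these data known. The 5 largest differences among those without overlap were all downward. Rab3il1, an exchange factor for Rab GTPases, differed by -0.81 (SE 0.24) and by -0.91 on its other probe set. Its signals were 33.3, 28.5 and 29.9 in siDNMT1 and 53.7, 49.7 and 70.0 in siNT, well apart. Unc13d, a priming factor gene of blood cells, differed by -0.72 (SE 0.43), Syngr1, a synaptogyrin of small vesicles, by -0.58 (SE 0.18), Cask, a membrane scaffold gene, by -0.51 (SE 0.20), and Syngr3 by -0.45 (SE 0.19). Unc13d had a gap of almost nothing, 20.0 on siDNMT1 repeat 3 against 20.3 on siNT repeat 3.

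Because Dnmt1 acts on CpG dinucleotides, the promoter letters of the genes were read from RefSeq starts on GRCm38.p6. A sequence was matched by symbol for 38 of the 50 genes, and the 250 bases before the start with the most CpG were counted. Of the tested genes with a sequence, the 2 with the lowest differences, Napb and Sv2a, and the 2 with the highest, Rab3b and Sv2c, are shown. Capitals mark CpG, and all are written 5′ to 3′ along the gene. Napb lies on the minus strand at chr2:148732421-148732670, Sv2a on the plus strand at chr3:96180977-96181226, Rab3b on the plus strand at chr4:108878820-108879069 and Sv2c on the minus strand at chr13:96132578-96132827.
Napb: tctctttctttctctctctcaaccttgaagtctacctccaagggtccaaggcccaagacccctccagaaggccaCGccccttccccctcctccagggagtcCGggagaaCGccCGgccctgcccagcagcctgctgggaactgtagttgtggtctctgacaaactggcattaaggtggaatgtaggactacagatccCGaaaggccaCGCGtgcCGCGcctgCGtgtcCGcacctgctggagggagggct
Sv2a: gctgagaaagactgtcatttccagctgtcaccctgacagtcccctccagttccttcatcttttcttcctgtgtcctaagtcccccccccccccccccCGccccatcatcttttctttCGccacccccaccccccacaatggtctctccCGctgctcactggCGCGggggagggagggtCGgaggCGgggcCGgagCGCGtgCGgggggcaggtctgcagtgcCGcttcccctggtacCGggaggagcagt
Rab3b: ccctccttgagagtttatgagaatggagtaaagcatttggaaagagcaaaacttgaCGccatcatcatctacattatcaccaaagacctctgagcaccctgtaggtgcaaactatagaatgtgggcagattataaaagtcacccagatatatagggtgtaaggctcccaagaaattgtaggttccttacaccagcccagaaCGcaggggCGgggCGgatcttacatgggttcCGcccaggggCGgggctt
Sv2c: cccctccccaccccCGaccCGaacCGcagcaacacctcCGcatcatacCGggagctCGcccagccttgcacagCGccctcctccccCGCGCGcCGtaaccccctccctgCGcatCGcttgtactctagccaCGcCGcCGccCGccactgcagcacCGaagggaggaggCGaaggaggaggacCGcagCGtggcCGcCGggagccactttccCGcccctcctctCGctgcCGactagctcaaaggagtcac
The windows of Napb and Sv2a held 11 and 13 CpG, and those of Rab3b and Sv2c 6 and 26, so that the numbers of the higher genes lay on both sides of those of the lower ones. The 38 genes ran from 3 CpG in Vamp8 to 44 in Cadps2 with a median of 14.5, against 16 over the 10866 tested genes with a sequence.

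The CpG content did not order the differences of the set as a whole. An observed over expected CpG ratio of 0.6 or more was found in 20 of the 38 genes (52.6%) and in 65.9% of tested genes. The median difference was -0.14 for the 19 tested genes at or above that ratio and -0.23 for the 17 below it. Over all tested genes these medians were -0.07 and -0.03. Across the 36 tested genes the ratio and the difference had a Pearson r of 0.06 and a Spearman rho of -0.01. Over all 10866 tested genes with a sequence they were -0.09 and -0.07. These values are descriptions, since genes of the same arrays are not independent. No methylation was measured on these arrays.

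**Figure D5:**
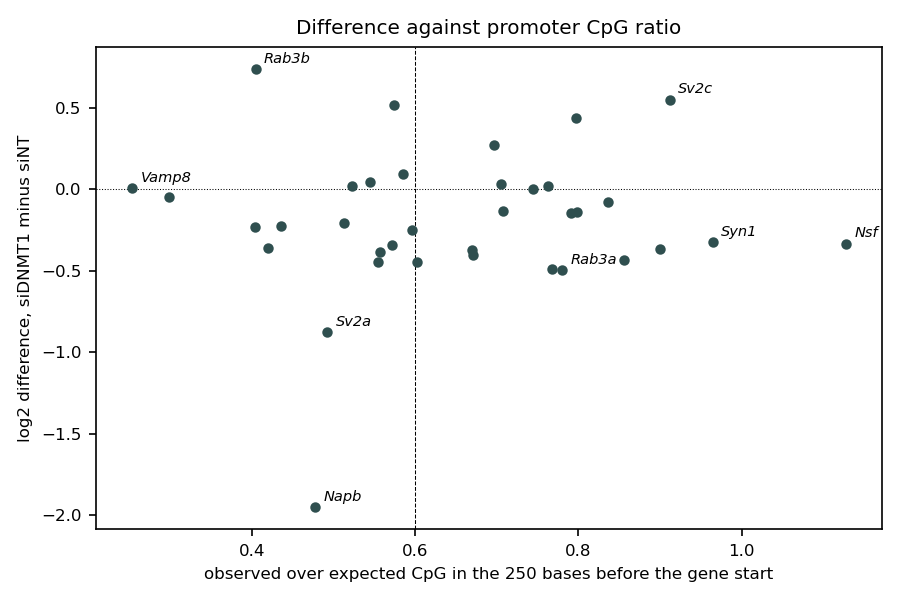
Log2 difference of siDNMT1 minus siNT against the observed over expected CpG ratio of the 250 bases before the gene start, for the 36 tested exocytosis genes with a promoter sequence; the dashed line marks a ratio of 0.6. Napb and Sv2a lie to its left, and other points lie above and below 0 on both sides of the line, with Rab3b at 0.74 to the left and Sv2c at 0.55 to the right.

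3 motifs were searched on both strands of these windows: the cyclic AMP response element TGACGTCA, the GC box GGGCGG and TTCAGCACC, a core of the site of the neuronal repressor REST. They do not overlap each other in letters. The response element and the REST core were each found in 1 of the 38 genes, Syn1 in both cases, in 1.64% and 0.292% of the windows of all 27025 genes and in 2.55% and 0.304% of those of tested genes. The GC box was in 25 of the 38 (65.8%), in 34.4% of all genes and in 58.7% of tested ones. The Syn1 window, on the minus strand at chrX:20920919-20921168, is shown for its 2 matches, which are in capitals.
Syn1: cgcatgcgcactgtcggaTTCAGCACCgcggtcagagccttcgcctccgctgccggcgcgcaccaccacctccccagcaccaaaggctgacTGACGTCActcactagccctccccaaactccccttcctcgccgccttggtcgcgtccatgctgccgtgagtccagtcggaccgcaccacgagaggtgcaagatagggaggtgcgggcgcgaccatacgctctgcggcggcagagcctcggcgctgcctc
The REST core ran from 232 to 224 and the response element from 159 to 152 bases before the start. A match says nothing of binding, and Syn1 differed by -0.32 (SE 0.18), with 363, 444 and 501 in siDNMT1 and 477, 638 and 525 in siNT.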

How the data were processed

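Total RNA from 6 AtT-20 cultures was hybridised to 1 Affymetrix mouse array each. The authors deposited intensity values on a linear scale, 1 for every probe set of an array, made with GCOS per the submitters' processing notes. The GCOS version is not given in the sources used here, nor are its settings. The table has 45101 probe sets, of which 64 are controls. Arrays were scaled to the same median log2 value, because their 2% trimmed means differed by more than 10%, and 5.29, the 20th percentile of deposited values, was added before log2, so changes of dim genes are understated. The 27022 probe sets at or above the 40th percentile of mean scaled signal (16.8) were tested with limma 3.58.1 in R 4.3.3 (lmFit, eBayes with a trend, two-sided, Benjamini-Hochberg over all of them). The scripts were tested on simulated data. The number of arrays limits the precision. The p-values of the main fit set the group difference against the spread of arrays within a group. In the fit with the block, differences between repeats are taken out of that spread.

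Genes were named by the platform annotation: 34945 probe sets had 1 symbol, 932 several and 9160 none. The members, role groups and lists were chosen with earlier results of these data known. Values on every array are given for genes whose groups did not overlap, for the largest difference and for the brightest gene of each role, and of other pathway genes for up to 5 with the largest difference among those without overlap. Further genes were picked after their values were seen. After subtraction of the group means, arrays of 1 repeat correlated at 0.173, 0.231 and 0.257 over probe sets, so the repeat numbers pair the arrays. The SEs printed above are of the fit that leaves this pairing out. Alternatives were scaling, pseudocount, filter, block, trend, cross-hybridising probe sets, the probe set that stands for a gene, and each array or repeat left out.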

Additional observations from a re-analysis of the deposited data

How the results depend on the processing

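The median difference of the exocytosis genes stayed below 0 under all 20 alternatives, from -0.28 to -0.11, and moved by less than its spread between repeats (0.10). With trimmed mean scaling it was -0.12 (0.00 for all probe sets tested) and with quantile scaling -0.13 (-0.01). Without siNT replicate 2, which read high for many of these genes, it was -0.11. The count of genes whose siDNMT1 values all lay below the siNT values, 8 in the main setting, was 1 without scaling (the cause was not tested) and 8 to 15 when 1 array was left out. Fewer arrays have to be parted then: it was 15 without siNT replicate 1 or siDNMT1 replicate 3 and 13 without siDNMT1 replicate 2. For these settings the share over all tested genes is not given, so nothing is read from the counts. Over all tested probe sets limma called 0 in the main setting, 1 with each of trimmed mean scaling, quantile scaling, the stricter filter and the omission of cross-hybridising probe sets, 2 without scaling, 23 with the replicate block, and 0 to 4 with 1 array left out. With the replicate block it called 41, 34 and 266 without replicates 1, 2 and 3. None of these calls was a probe set of the exocytosis genes, with 3 exceptions. Napb was called without siDNMT1 replicate 1 (0.0074% of all probe sets called) and with the block without replicate 1 (0.152%), and Napb, Rab3a, Sv2a and Syt7 with the block without replicate 3 (0.984%). The replicate block changed no other call of these genes. Among the 20 genes named by the rule, Snap25, Sytl4, Vamp8 and Rims1 turned sign under at least 1 alternative, and the other 16 under none in which they were tested. In 14 of the 20 the difference moved by over 1.5 times when 1 array was left out, with siNT replicate 1 and siNT replicate 2 moving 8 genes each. Without siDNMT1 replicate 3 Cplx1 was -0.19, without siDNMT1 replicate 2 Napa was -0.03, and without siNT replicate 1 Syn2 was 0.11. Napb ran from -2.57 to -0.62, the latter as the median over its probe sets, Sv2a from -1.07 to -0.65, Syt7 from -0.71 to -0.28 and Rab3a from -0.74 to -0.41. Signals near background limit what can be said of the dim genes.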
